A study of Homo sapiens with 18 samples.

Results

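The genes described here are 10 genes of the mTOR pathway in U2OS cells, a human osteosarcoma line: *DDIT4*, *DEPTOR*, *TSC1*, *TSC2*, *RHEB*, *MTOR*, *RPTOR*, *RICTOR*, *RPS6KB1* and *EIF4EBP1*. They were chosen by name for their place in the pathway, and every sample comes from this 1 cell line. All 10 were listed in each of the 6 comparison tables, among 26702 genes listed in at least 1 table and 22738 listed in all of them. The siRNA was siControl, siANKRA2 or siRFXANK, and the treatment was Nutlin-3a at 10 µM, or its solvent DMSO, for 24 h. Each of the 6 groups held 3 samples, 18 in all, and polyadenylated RNA was sequenced. The siRFXANK samples were registered apart from the others, under labels of another form that also give bone as the tissue, epithelial cells as the cell type and a wild-type genotype, and they have no siControl samples of their own. What siRFXANK did and how the separately registered sets differed therefore cannot be told apart. No label states that the 3 samples of a group came from separate cultures, so p-values measure only the spread between samples, which may be technical. The tables hold no value per library, and sequencing depth is unknown.

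The kinase mTOR works in 2 complexes. In mTORC1 it is joined by raptor, the product of *RPTOR*, and promotes protein synthesis and growth when nutrients and growth factors are present. In mTORC2 it is joined by rictor, the product of *RICTOR*, and phosphorylates AKT. The small GTPase RHEB switches mTORC1 on, and the TSC complex, built from the products of *TSC1* and *TSC2*, switches RHEB off. DDIT4, also called REDD1, is a stress-induced protein that restrains mTORC1 through the TSC complex, and its gene is a known target of p53. DEPTOR binds mTOR and inhibits it. The products of *RPS6KB1* (S6K1) and *EIF4EBP1* (4E-BP1) are mTORC1 substrates that act on translation, and 4E-BP1 holds back the cap-binding factor eIF4E until it is phosphorylated. Nutlin-3a frees p53 from its inhibitor MDM2. RFXANK is an ankyrin repeat partner of RFX transcription factors, which bind X-box sequences in promoters, and ANKRA2 is a related ankyrin repeat protein. The values below are transcript levels and say nothing of phosphorylation or kinase activity.

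Promoter sequences are shown for the 4 members that moved most in any comparison among those with a sequence, and for *TSC2*, whose window holds a motif match. They are the 250 bases upstream of a RefSeq gene start on GRCh38.p14, written 5′ to 3′ on the strand of the gene. Capitals mark matches to an X-box half-site (GTTGCC or GTTGCT) or to the core of an amino acid response element (TGATGNAA), both searched on either strand from 250 bases before the start to 50 after it. The RefSeq table held windows for 8 of the 10 members, and *DEPTOR* and *EIF4EBP1* were not among them.
DDIT4, chr10:72273674-72273923, plus strand: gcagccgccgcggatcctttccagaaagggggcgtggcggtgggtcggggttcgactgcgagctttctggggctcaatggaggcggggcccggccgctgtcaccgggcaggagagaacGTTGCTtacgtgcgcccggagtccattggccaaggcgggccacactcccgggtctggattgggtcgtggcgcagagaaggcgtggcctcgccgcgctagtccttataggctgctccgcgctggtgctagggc
MTOR, chr1:11262552-11262801, minus strand: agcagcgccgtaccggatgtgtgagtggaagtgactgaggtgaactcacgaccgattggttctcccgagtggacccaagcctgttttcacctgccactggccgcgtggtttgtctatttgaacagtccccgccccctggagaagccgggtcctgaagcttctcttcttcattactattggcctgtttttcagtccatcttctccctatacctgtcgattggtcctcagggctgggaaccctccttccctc
TSC1, chr9:132944617-132944866, minus strand: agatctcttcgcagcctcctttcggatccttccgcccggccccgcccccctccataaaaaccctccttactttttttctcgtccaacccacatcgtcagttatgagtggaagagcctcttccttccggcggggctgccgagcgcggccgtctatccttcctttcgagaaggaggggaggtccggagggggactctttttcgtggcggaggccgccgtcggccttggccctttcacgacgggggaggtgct
RPS6KB1, chr17:59892871-59893120, plus strand: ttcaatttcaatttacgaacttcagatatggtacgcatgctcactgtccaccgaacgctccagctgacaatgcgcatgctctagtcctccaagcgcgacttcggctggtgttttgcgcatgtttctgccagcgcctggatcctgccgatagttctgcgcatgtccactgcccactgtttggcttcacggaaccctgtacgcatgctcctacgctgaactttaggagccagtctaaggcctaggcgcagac
TSC2, chr16:2047735-2047984, plus strand: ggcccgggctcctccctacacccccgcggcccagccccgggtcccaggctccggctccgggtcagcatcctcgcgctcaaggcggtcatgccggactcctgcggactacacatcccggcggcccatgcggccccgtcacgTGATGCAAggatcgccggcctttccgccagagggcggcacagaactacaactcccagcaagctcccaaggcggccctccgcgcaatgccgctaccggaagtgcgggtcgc

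The *DDIT4* window held 1 X-box half-site, GTTGCT, at -132 to -127 from the start. Of all 35116 promoter windows of 300 bases in the table, 23.1% held such a half-site. *TSC2* held 1 match to the amino acid response core, TGATGCAA, at -110 to -103 from the start, against 3.62% of all windows with a match. The p53 half-site, searched by its usual consensus, was found in 6.63% of all windows and in none of the windows of the 8 members. A match is a description of letters, and a window without one says nothing of binding elsewhere.

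On GRCh38 with GENCODE 29, *DDIT4* (ENSG00000168209) is found at 72273920 to 72276036 of chromosome 10, plus strand, and *DDIT4-AS1* overlaps it on the minus strand with a mean of 2.79 normalized counts. *MTOR* (ENSG00000198793) lies on the minus strand of chromosome 1 from 11106535 to 11262507. *TSC1* (ENSG00000165699) is on the minus strand of chromosome 9 from 132891348 to 132946874. The *TSC2* gene (ENSG00000103197) is found at 2047465 to 2089487 of chromosome 16, plus strand, and overlaps *PKD1* and *NTHL1* on the minus strand, which had means of 2220 and 647 normalized counts. *RPTOR* (ENSG00000141564) spans 80544819 to 80966371 on the plus strand of chromosome 17, and *RPS6KB1* (ENSG00000108443) spans 59893046 to 59950564 on the same strand of the same chromosome. The pseudogene *RPS29P21* and the protein coding gene *AC005702.1* overlap *RPS6KB1* on its own strand, and neither was listed. Where their exons overlap, reads may not be told apart under any use of strand. *RICTOR* (ENSG00000164327) is on the minus strand of chromosome 5 from 38937919 to 39074408 and overlaps *OSMR* on the plus strand, whose mean was 4706. *RHEB* (ENSG00000106615) is on the minus strand of chromosome 7 from 151466012 to 151520120, and the pseudogene *ETF1P2* overlaps it on the plus strand with a mean of 168. Because the use of strand in counting is not given in the sources used here, reads of *TSC2* and *PKD1*, or of *RICTOR* and *OSMR*, may not be told apart where their exons overlap. In the longest transcripts, 20.4% of the stretches of 31 bases of *RHEB* and 13.5% of those of *RPS6KB1* also occurred in transcripts of other genes, *RHEBP1* and *RHEBP2* among them, so the values of *RHEB* and *RPS6KB1* are uncertain to that extent. The share was 0% for the other 8 members. *DEPTOR* (ENSG00000155792) and *EIF4EBP1* (ENSG00000187840) lie on the plus strand of chromosome 8, the first from 119873717 to 120050913 and the second from 38030341 to 38060365. All 10 are protein coding genes.

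The knockdown targets fell after their own siRNAs. *ANKRA2* was at a log2 fold change of -1.81 ± 0.18 (SE) in DMSO and -2.58 ± 0.12 in Nutlin-3a after siANKRA2, and *RFXANK* at -2.96 ± 0.10 and -3.16 ± 0.10 after siRFXANK. This direction is how the tables were read, so it is no separate result. Each siRNA also moved the target of the other, past the threshold of the authors' Wald test. After siRFXANK, *ANKRA2* was at 0.73 ± 0.11 in DMSO and 0.46 ± 0.06 in Nutlin-3a. After siANKRA2, *RFXANK* was at -0.37 ± 0.07 and -0.44 ± 0.07. The siRNAs thus did not change their own targets alone. *ANKRA2* itself rose with Nutlin-3a in siControl cells, by 1.95 ± 0.10. Nutlin-3a raised the p53 target *MDM2* by 3.38 ± 0.05 in siControl cells. Among mesenchymal and osteoblast markers, *COL1A1*, *VIM*, *SPARC* and *CDH2* had means from 5098 to 64042 normalized counts, *RUNX2* 454, *ALPL* 148 and *COL1A2* 33.2, and *SP7* was not listed. Of the epithelial markers, *KRT8* and *KRT18* were at 21456 and 12960, *EPCAM* at 161 and *CDH1* at 32.9, while *ESRP1*, *CDH3* and *KRT19* were at 1.67 to 7.77 and *GRHL2* was not listed. These are bulk values, in which fewer expressing cells and less RNA per cell cannot be told apart.

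The siRFXANK samples in DMSO differed from the siControl samples by transcript length, which bears on the members because 6 of them have long transcripts. The longest transcripts of *RICTOR*, *TSC1* and *MTOR* measure 9543, 8715 and 8677 bases, those of *RPTOR*, *TSC2* and *RPS6KB1* 6408, 6344 and 5479 bases, and those of *DEPTOR*, *RHEB*, *DDIT4* and *EIF4EBP1* 2569, 2075, 1748 and 1020 bases. Among genes averaging at least 100 normalized counts, the 2621 genes with the longest transcripts (above 5866 bases) had a median log2 fold change of -0.24 in siRFXANK over siControl in DMSO, and the 2620 genes with the shortest (below 1822 bases) one of 0.18. With Nutlin-3a, the same medians were -0.02 and 0.04. The same medians for siANKRA2 over siControl were -0.07 and 0.10 in DMSO, and -0.13 and 0.12 in Nutlin-3a. Among these 4 comparisons the gap between long and short genes was thus largest in siRFXANK over siControl in DMSO, and its cause was not tested. The median of genes of like transcript length was also subtracted from each value. The paragraphs on single members give the result, as a value or adjusted p, where this changed a call. They also give it where a value that had passed moved by over 1.5 times. Values that passed neither before nor after it are given without it, and some of them moved by more than that. *RHEB* with siANKRA2 in DMSO went from 0.14 to 0.03, and *RICTOR* with siANKRA2 in Nutlin-3a from -0.18 to -0.04. The subtraction was added after the data were seen. Genes of like length are those in the same of 50 length bins where a median is subtracted, and those in a window around the length of the gene where a median is only quoted. *MTOR*, *RICTOR* and *RPTOR* also had larger standard errors than most genes of like mean. The standard error of the *MTOR* response to Nutlin-3a in siControl cells, 0.11, exceeded that of 97.5% of 1825 genes within 1.5-fold of its mean. The shares were 95.9% for *RICTOR*, 92.4% for *RPTOR*, 85.9% for *TSC1* and 85.8% for *TSC2*, and from 52.3% to 70.0% for the other members. The spread behind these errors appears to be shared over all groups in 1 joint fit, so it is not that of the siControl samples alone.

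The tables first show how p53 activation moved the 10 genes. In siControl cells, Nutlin-3a changed 7 of the 10 members at an adjusted p under 0.05 in the authors' Wald test. It raised 3 (*DDIT4*, *TSC1* and *TSC2*) and lowered 4 (*DEPTOR*, *RHEB*, *RPS6KB1* and *EIF4EBP1*). Of all 25909 genes tested, 43.2% were called, 21.9% higher and 21.2% lower. Among the 13103 genes averaging at least 100 normalized counts, a level that all members but *DEPTOR* reach, 67.5% were called, so the number of members called was near the share among well expressed genes. The median absolute log2 fold change was 0.34 over the members, 0.41 over all genes and 0.28 over those averaging at least 100. Apart from *DDIT4*, every called member moved by less than 1 on the log2 scale.

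After siANKRA2, only *DDIT4* (up) and *RPS6KB1* (down) passed the threshold, 2 of 10, against 32.4% of all 22738 genes tested, 15.5% higher and 17% lower, and 48.7% of the genes averaging at least 100. The median absolute log2 fold change of the members was 0.11, that of all genes 0.24 and that of genes averaging at least 100 was 0.17. The difference between the responses of siANKRA2 and siControl cells was tested directly, from the difference of their log2 fold changes over its standard error, with a two-sided normal p adjusted over all genes. It passed for 5 members, with 2 responses lower (*DDIT4* and *TSC1*) and 3 higher (*RHEB*, *RPS6KB1* and *EIF4EBP1*). Over all genes 24% passed, 11.4% higher and 12.5% lower, and 37.1% passed among genes averaging at least 100.

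In siRFXANK cells, whose response was derived from the other comparisons, all 10 members passed, 6 higher and 4 lower. Over the 25116 genes tested 45.3% passed, 22.8% higher and 22.5% lower, and 70.3% of the genes averaging at least 100. After subtraction of the median of genes of like transcript length, 9 members passed, all but *MTOR*. The difference from the siControl response passed for 7 members, 6 higher (*TSC1*, *TSC2*, *MTOR*, *RPTOR*, *RICTOR* and *RPS6KB1*, the members with the longest transcripts) and 1 lower (*DDIT4*), against 21.2% of all genes, 11.6% higher and 9.64% lower, and 37.7% of the genes with a mean of at least 100. After subtraction of the median of genes of like length, none of the 10 passed, with 3 at an unadjusted two-sided normal p under 0.05, while 16.6% of all genes passed. The difference between the siANKRA2 and siRFXANK responses, a comparison added after the data were seen and one that shares no samples, passed for 9 members, 3 higher and 6 lower in siANKRA2 cells, and for 32.4% of all genes, 14.7% higher and 17.7% lower. Among genes averaging at least 100, 50.2% passed. With the length medians subtracted it passed for 5, *DDIT4*, *DEPTOR*, *TSC1*, *TSC2* and *EIF4EBP1*.

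**Figure D1:**
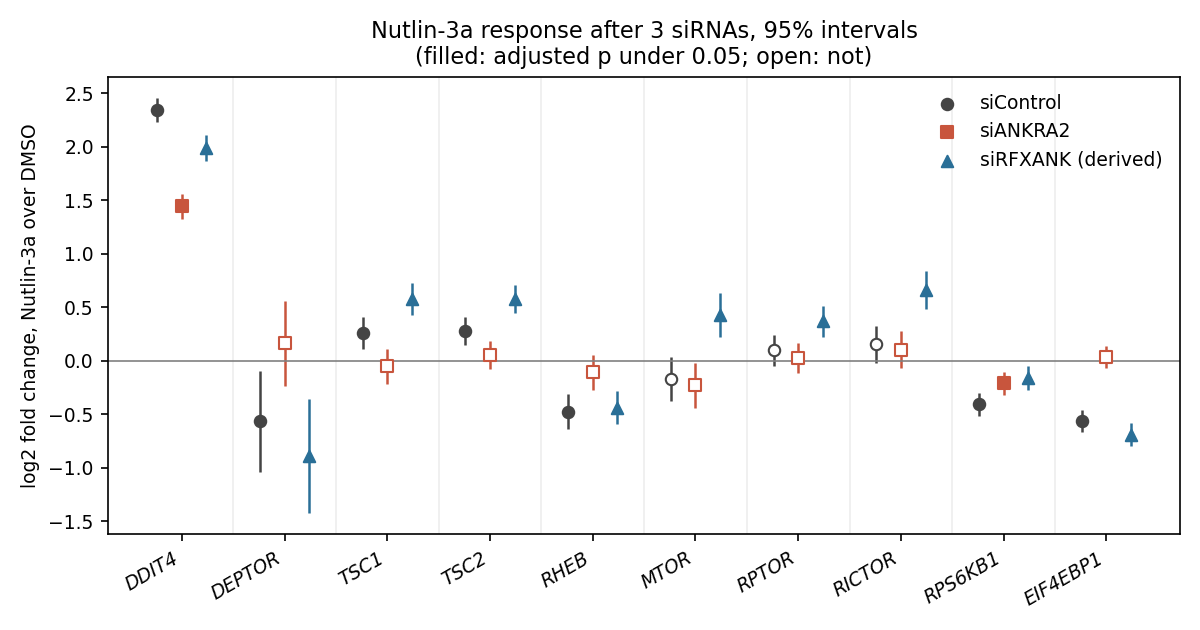
Log2 fold change of each member with Nutlin-3a over DMSO in siControl (circles), siANKRA2 (squares) and siRFXANK cells (triangles, derived), with 95% intervals, filled where the adjusted p was under 0.05. *DDIT4* rose in all 3, most in siControl cells at 2.34 and least in siANKRA2 cells at 1.44, while 8 of the 10 siANKRA2 points are open.

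**Figure D2:**
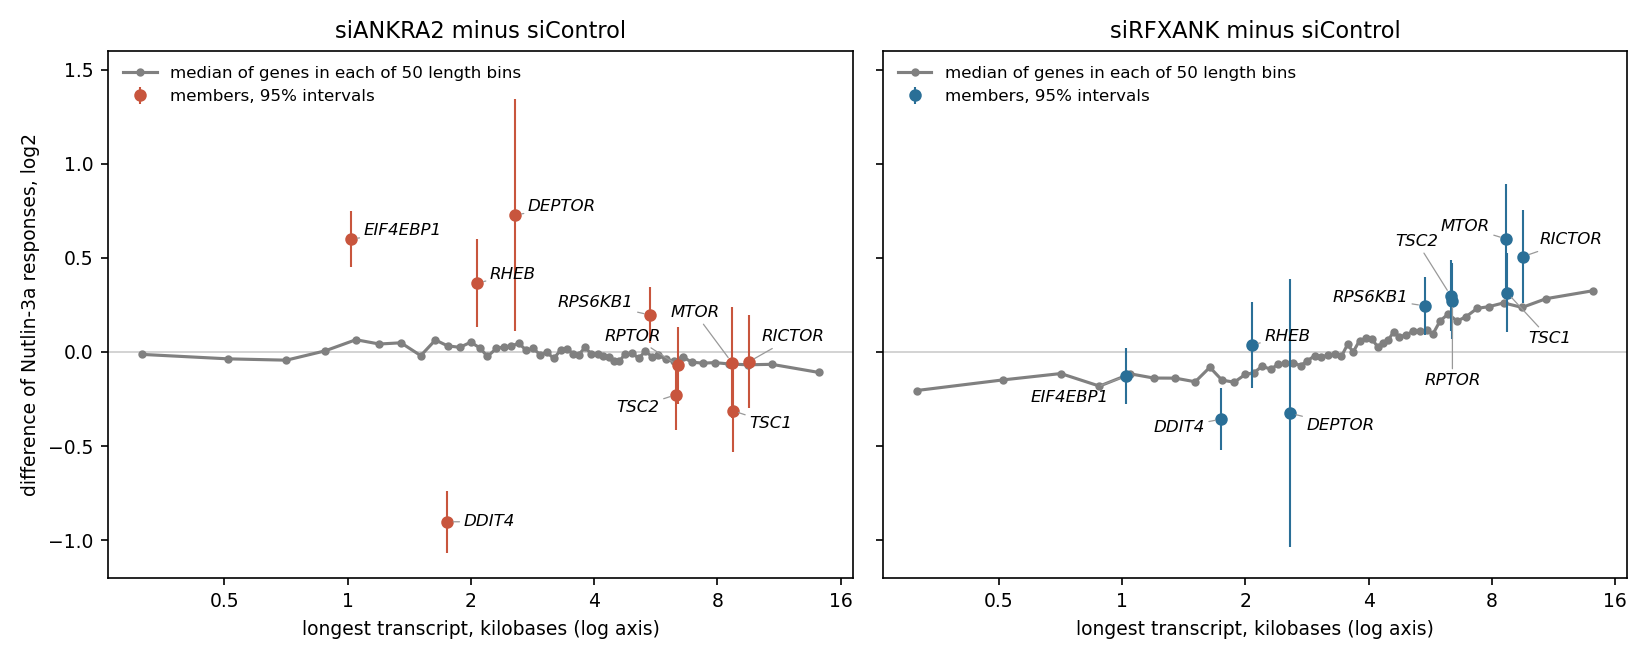
Difference of the Nutlin-3a response from that of siControl cells, on the log2 scale, against the length of the longest transcript on a log axis, for siANKRA2 (left) and siRFXANK (right). Colored points are the 10 members with 95% intervals, and the grey line joins the medians of genes averaging at least 100 in each of 50 length bins. The grey medians run from -0.20 in the shortest to 0.33 in the longest bin on the right, and lie between -0.11 and 0.06 on the left.

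*DDIT4*, the brake that acts through the TSC complex, had the largest response of the 10. Its group means, recovered from the authors' fold changes and standard errors and therefore approximate, were 788 normalized counts in siControl cells with DMSO and 4000 with Nutlin-3a. In siANKRA2 cells they were 709 and 1928, and in siRFXANK cells 589 and 2338. Standard errors were 0.04 to 0.05 on the log2 scale, but they leave out the error of the recovery itself. The authors' mean of *DDIT4* was 1.23 times the mean recovered. All 3 Nutlin-3a groups lay above all 3 DMSO groups. The response was 2.34 ± 0.06 (5.08-fold, adjusted p listed as 0 in the authors' Wald test) in siControl cells. It was 1.44 ± 0.06 (2.72-fold, adjusted p = 8.2e-120) in siANKRA2 cells and 1.99 ± 0.06 (3.97-fold, adjusted p = 9.7e-224, normal test) in siRFXANK cells. The response was thus 1.87-fold smaller after siANKRA2 than after siControl (log2 difference -0.90 ± 0.08, adjusted p = 1.5e-24). After siRFXANK it was 1.28-fold smaller (-0.36 ± 0.09, adjusted p = 0.00036), and after subtraction of the like-length median this became -0.21 (adjusted p = 0.079, normal test). The p53 target *MDM2* also responded less after siANKRA2 (difference -1.19 ± 0.07) and after siRFXANK (-0.33 ± 0.07). In knockdown over siControl, *DDIT4* was lower in all 4 comparisons. After siANKRA2 the log2 fold change was -0.15 ± 0.07 in DMSO (adjusted p = 0.043 in the authors' Wald test, or 0.071 with the like-length median subtracted) and -1.05 ± 0.05 in Nutlin-3a (adjusted p = 4.9e-83). After siRFXANK it was -0.42 ± 0.07 in DMSO (adjusted p = 2.0e-09) and -0.77 ± 0.05 in Nutlin-3a (adjusted p = 3.7e-46), against medians of 0.15 and 0.04 for genes of like length, which lie in the opposite direction.

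The TSC complex genes rose with Nutlin-3a in siControl and siRFXANK cells, and did not pass in siANKRA2 cells. *TSC1*, which stabilizes the complex, had group means of 1100 and 1320 normalized counts in siControl cells (DMSO and Nutlin-3a), 619 and 598 in siANKRA2 cells, and 1043 and 1557 in siRFXANK cells. Both siANKRA2 groups lay below the other 4. The *TSC1* response was 0.26 ± 0.08 (adjusted p = 0.0017, authors' Wald test) in siControl cells, -0.05 ± 0.08 (adjusted p = 0.73) in siANKRA2 cells and 0.58 ± 0.08 (adjusted p = 2.0e-13, normal test) in siRFXANK cells. The siRFXANK value was 0.28 after subtraction of the like-length median (adjusted p = 0.00084, normal test). The siANKRA2 response was lower than the siControl response (difference -0.31 ± 0.11, adjusted p = 0.027, or 0.098 with the like-length median subtracted, normal test). The siRFXANK response was higher (0.31 ± 0.11, adjusted p = 0.02, or 0.83 with that median subtracted, normal test). The siANKRA2 effect itself was larger than that difference. *TSC1* fell 1.78-fold in DMSO (-0.83 ± 0.08, adjusted p = 2.9e-24) and 2.21-fold in Nutlin-3a (-1.14 ± 0.08, adjusted p = 2.4e-45, authors' Wald test), where genes of like length had medians of -0.10 and -0.16. After siRFXANK, *TSC1* was at -0.08 ± 0.08 in DMSO (adjusted p = 0.47, or 0.18 with adjusted p = 0.046 after subtraction of the like-length median) and at 0.24 ± 0.08 in Nutlin-3a (adjusted p = 0.0051).

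*TSC2*, which carries the GTPase-activating domain of the complex, had group means of 2391 and 2902 normalized counts in siControl cells, 2214 and 2297 in siANKRA2 cells, and 1612 and 2408 in siRFXANK cells. The siRFXANK group with DMSO was the lowest, and the highest group was 1.80-fold above it. Its response was 0.28 ± 0.07 in siControl cells (adjusted p = 0.0001), 0.05 ± 0.07 in siANKRA2 cells (adjusted p = 0.63, authors' Wald test) and 0.58 ± 0.07 in siRFXANK cells (adjusted p = 1.9e-16, normal test). After subtraction of the like-length median the last was 0.38 (adjusted p = 1.6e-07, normal test). The response after siANKRA2 did not pass as different from that after siControl (-0.23 ± 0.10, adjusted p = 0.066), an estimate with a 95% interval from -0.41 to -0.04. After siRFXANK it was higher by 0.30 ± 0.10 (adjusted p = 0.011, or 0.59 with the like-length median subtracted). In knockdown over siControl, *TSC2* fell by 0.34 ± 0.07 with siANKRA2 in Nutlin-3a (-0.16 with the like-length median subtracted, adjusted p = 0.031, normal test) and did not pass in DMSO (-0.11 ± 0.07, adjusted p = 0.17). With siRFXANK it fell in both, at -0.57 ± 0.07 in DMSO and -0.27 ± 0.07 in Nutlin-3a, where like-length medians were -0.18 and -0.02.

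*DEPTOR*, the inhibitor that binds mTOR itself, was the least abundant member and gave the widest intervals. Its recovered means were 48.5 and 32.8 normalized counts in siControl cells with DMSO and Nutlin-3a, and 75.1 and 84.0 in siANKRA2 cells. In siRFXANK cells they were 38.6 and 20.8. Standard errors were 0.14 to 0.21 on the log2 scale, again without the error of the recovery. The siANKRA2 groups were the 2 highest. *DEPTOR* rose after siANKRA2 1.55-fold in DMSO (0.63 ± 0.22, adjusted p = 0.0082) and 2.56-fold in Nutlin-3a (1.36 ± 0.23, adjusted p = 1.2e-08, authors' Wald test). After siRFXANK it was at -0.33 ± 0.23 in DMSO (adjusted p = 0.28) and -0.65 ± 0.28 in Nutlin-3a (adjusted p = 0.049). The Nutlin-3a response was -0.56 ± 0.24 in siControl cells (adjusted p = 0.044, or 0.095 with the like-length median subtracted), 0.16 ± 0.20 in siANKRA2 cells (adjusted p = 0.61) and -0.89 ± 0.27 in siRFXANK cells (adjusted p = 0.0031, normal test). The difference between siANKRA2 and siControl responses, 0.73 ± 0.31, did not pass (adjusted p = 0.077), and its 95% interval ran from 0.11 to 1.34. Set directly against siRFXANK cells, the siANKRA2 response was higher by 1.05 ± 0.34 (adjusted p = 0.0081, normal test).

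*RHEB*, the GTPase that turns mTORC1 on, moved opposite to the TSC genes in siControl cells. The recovered means were 484 and 348 normalized counts in siControl cells, 532 and 494 in siANKRA2 cells, and 638 and 472 in siRFXANK cells. The siControl group with Nutlin-3a was the lowest of the 6. Nutlin-3a lowered *RHEB* 1.39-fold in siControl cells (-0.47 ± 0.09, adjusted p = 1.4e-07) and 1.35-fold in siRFXANK cells (-0.44 ± 0.08, adjusted p = 2.4e-07, normal test). In siANKRA2 cells the value was -0.11 ± 0.08 (adjusted p = 0.35), and this response was higher than in siControl cells by 0.37 ± 0.12 (adjusted p = 0.011, normal test). *RHEB* was higher after siANKRA2 in Nutlin-3a (0.50 ± 0.09, adjusted p = 1.6e-08) and did not pass in DMSO (0.14 ± 0.08, adjusted p = 0.16). After siRFXANK it was higher in DMSO (0.40 ± 0.08) and in Nutlin-3a (0.44 ± 0.09), with adjusted p-values of 2.3e-06 and 1.8e-06 in the authors' Wald test. Median values for genes of like length were 0.12 and 0.03.

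The kinase gene and the 2 scaffold genes that define its complexes did not pass in the Nutlin-3a comparison of siControl cells. *MTOR* had recovered means of 4538 and 4028 normalized counts in siControl cells with DMSO and Nutlin-3a, 1841 and 1572 in siANKRA2 cells, and 3140 and 4226 in siRFXANK cells. Both siANKRA2 groups lay far below the other 4. *MTOR* fell 2.46-fold after siANKRA2 in DMSO (-1.30 ± 0.11, adjusted p = 2.8e-33) and 2.56-fold in Nutlin-3a (-1.36 ± 0.11, adjusted p = 7.1e-36, authors' Wald test), the largest siANKRA2 effect among the 10 in DMSO. Genes of like length had medians of -0.09 and -0.16 there, and 3.02% of them lay below *MTOR* in DMSO and 4.34% in Nutlin-3a. After siRFXANK it fell in DMSO (-0.53 ± 0.11, adjusted p = 2.4e-06, or -0.27 with the like-length median subtracted, adjusted p = 0.027), and in Nutlin-3a the value was 0.07 ± 0.11 (adjusted p = 0.66). The Nutlin-3a response of *MTOR* was -0.17 ± 0.11 in siControl cells (adjusted p = 0.19) and -0.23 ± 0.11 in siANKRA2 cells (adjusted p = 0.094), which differed by -0.06 ± 0.15 with a 95% interval from -0.35 to 0.24. In siRFXANK cells it was 0.43 ± 0.11 (adjusted p = 0.00018), and after subtraction of the like-length median 0.13 (adjusted p = 0.36, normal test). This response exceeded that of siControl cells by 0.60 ± 0.15 (adjusted p = 0.00068), or by 0.34 with the median subtracted (adjusted p = 0.11, normal test).

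*RPTOR*, which encodes the scaffold of mTORC1, moved opposite to *MTOR* after siANKRA2. Its means were 2256 and 2419 normalized counts in siControl cells, 3531 and 3603 in siANKRA2 cells, and 2522 and 3260 in siRFXANK cells. The siANKRA2 groups were the 2 highest and the siControl groups the 2 lowest. The siANKRA2 effect was 0.65 ± 0.07 in DMSO (1.56-fold, adjusted p = 7.0e-18) and 0.57 ± 0.07 in Nutlin-3a (1.49-fold, adjusted p = 1.9e-14, authors' Wald test), while genes of like length had medians of -0.08 and -0.11. After siRFXANK, *RPTOR* was higher in Nutlin-3a (0.43 ± 0.07, adjusted p = 2.7e-08). In DMSO it was at 0.16 ± 0.07 (adjusted p = 0.066), and with the like-length median subtracted it passed at 0.35 (adjusted p = 1.0e-05, normal test). Its Nutlin-3a responses were 0.10 ± 0.07 in siControl cells, 0.03 ± 0.07 in siANKRA2 cells and 0.37 ± 0.07 in siRFXANK cells, of which only the last passed (adjusted p = 1.7e-06, or 0.048 after subtraction of the like-length median, normal test). The siRFXANK response exceeded that of siControl cells by 0.27 ± 0.10 (adjusted p = 0.045), or by 0.07 with the median subtracted (adjusted p = 0.76, normal test).

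*RICTOR*, which encodes the scaffold of mTORC2, did not pass in either siANKRA2 over siControl comparison. Its means were 1861 and 2073 normalized counts in siControl cells, 1708 and 1836 in siANKRA2 cells, and 1379 and 2183 in siRFXANK cells, so that the lowest and the highest group were both siRFXANK groups. After siANKRA2 its log2 fold change was -0.12 ± 0.09 in DMSO and -0.18 ± 0.09 in Nutlin-3a, with adjusted p-values above the threshold (adjusted p = 0.27 and 0.089, authors' Wald test). After siRFXANK it fell in DMSO (-0.43 ± 0.09, adjusted p = 6.3e-06), which no longer passed with the like-length median subtracted (-0.20, adjusted p = 0.066). The Nutlin-3a response was 0.16 ± 0.09 in siControl cells (adjusted p = 0.15), 0.10 ± 0.09 in siANKRA2 cells (adjusted p = 0.43) and 0.66 ± 0.09 in siRFXANK cells (adjusted p = 8.0e-13, normal test), which became 0.34 after subtraction of the like-length median (adjusted p = 0.00047). The siRFXANK response exceeded the siControl response by 0.51 ± 0.13 (adjusted p = 0.00065), or by 0.27 with the like-length median subtracted (adjusted p = 0.14, normal test).

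Both substrate genes fell with Nutlin-3a in siControl cells. *EIF4EBP1*, the gene of the translation repressor 4E-BP1, had recovered means of 2652 and 1796 normalized counts in siControl cells, 2938 and 3012 in siANKRA2 cells, and 2663 and 1649 in siRFXANK cells. The siControl and siRFXANK groups with Nutlin-3a lay below the other 4. The response was -0.56 ± 0.05 in siControl cells (a 1.48-fold fall, adjusted p = 2.3e-24) and -0.69 ± 0.05 in siRFXANK cells (a 1.61-fold fall, adjusted p = 9.0e-36, normal test). In siANKRA2 cells it was 0.04 ± 0.05 (adjusted p = 0.67), with a 95% interval from -0.07 to 0.14. The siANKRA2 response was higher than the siControl response by 0.60 ± 0.08 (adjusted p = 6.5e-14, normal test), whereas the siRFXANK response differed by -0.13 ± 0.08, which did not pass (adjusted p = 0.26). *EIF4EBP1* was higher after siANKRA2 by 0.15 ± 0.05 in DMSO (adjusted p = 0.012) and by 0.75 ± 0.05 in Nutlin-3a (1.68-fold, adjusted p = 1.6e-42, authors' Wald test). After siRFXANK it was at 0.01 ± 0.05 and -0.12 ± 0.06 (adjusted p = 0.95 and 0.066), and the second passed at -0.14 after subtraction of the like-length median (adjusted p = 0.032).

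*RPS6KB1*, the gene of S6K1, was the member most lowered after siRFXANK in DMSO. The recovered means were 2670 and 2014 normalized counts in siControl cells, 3106 and 2684 in siANKRA2 cells, and 1413 and 1263 in siRFXANK cells. Both siRFXANK groups lay below the other 4. The siRFXANK effect was -0.92 ± 0.06 in DMSO (1.89-fold lower, adjusted p = 1.2e-59) and -0.67 ± 0.06 in Nutlin-3a (1.59-fold lower, adjusted p = 8.0e-31, authors' Wald test). Genes of like length had medians of -0.13 and -0.01, and 4.60% and 7.21% of them lay below *RPS6KB1*. After siANKRA2 the gene moved the other way, by 0.22 ± 0.05 in DMSO (adjusted p = 0.00012) and 0.41 ± 0.05 in Nutlin-3a (adjusted p = 1.2e-13). It was the only member besides *DDIT4* whose Nutlin-3a response passed after all 3 siRNAs, at -0.41 ± 0.05 in siControl cells, -0.21 ± 0.05 in siANKRA2 cells and -0.16 ± 0.06 in siRFXANK cells (adjusted p = 3.9e-13, 0.0004 and 0.014, the last from the normal test). After subtraction of the like-length median the siRFXANK value was -0.29 (adjusted p = 2.3e-06, normal test). The fall was smaller than in siControl cells by 0.20 ± 0.08 after siANKRA2 (adjusted p = 0.042) and by 0.24 ± 0.08 after siRFXANK (adjusted p = 0.013, or 0.31 with the like-length median subtracted).

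Counted over the knockdown comparisons, siANKRA2 over siControl passed for 7 members in DMSO, 4 higher and 3 lower, against 48.8% of all 26702 genes, 24.3% higher and 24.5% lower, and 77.0% of those averaging at least 100. In Nutlin-3a it passed for 9 members, 5 higher and 4 lower, against 50.1% of all genes, 24.6% higher and 25.5% lower, and 78.1% of those averaging at least 100. The siRFXANK over siControl comparison passed for 6 members in DMSO, 1 higher and 5 lower, against 42.1% of the 25909 genes tested, 20.9% higher and 21.2% lower. With the medians of genes of like length subtracted, 7 members passed there by the normal test, 3 higher (*TSC1*, *RHEB* and *RPTOR*) and 4 lower (*DDIT4*, *TSC2*, *MTOR* and *RPS6KB1*). In Nutlin-3a it passed for 7 members, 3 higher and 4 lower, against 39.4% of the 25116 genes tested, 19.8% higher and 19.6% lower. Among genes averaging at least 100, 69.5% and 62.7% passed in the siRFXANK comparisons. The share of members called lay above that among well expressed genes in some of these comparisons and below it in others. Whether these shares differed was not tested. The counts of members are small and *DEPTOR* averages below 100, so no pattern by treatment is drawn from them. The siANKRA2 and siRFXANK comparisons share their siControl samples, so their values are only set side by side. *MTOR* was at -1.30 and -0.53 in DMSO after siANKRA2 and siRFXANK, *RPS6KB1* at 0.22 and -0.92, and *TSC1* at -0.83 and -0.08.

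**Figure D3:**
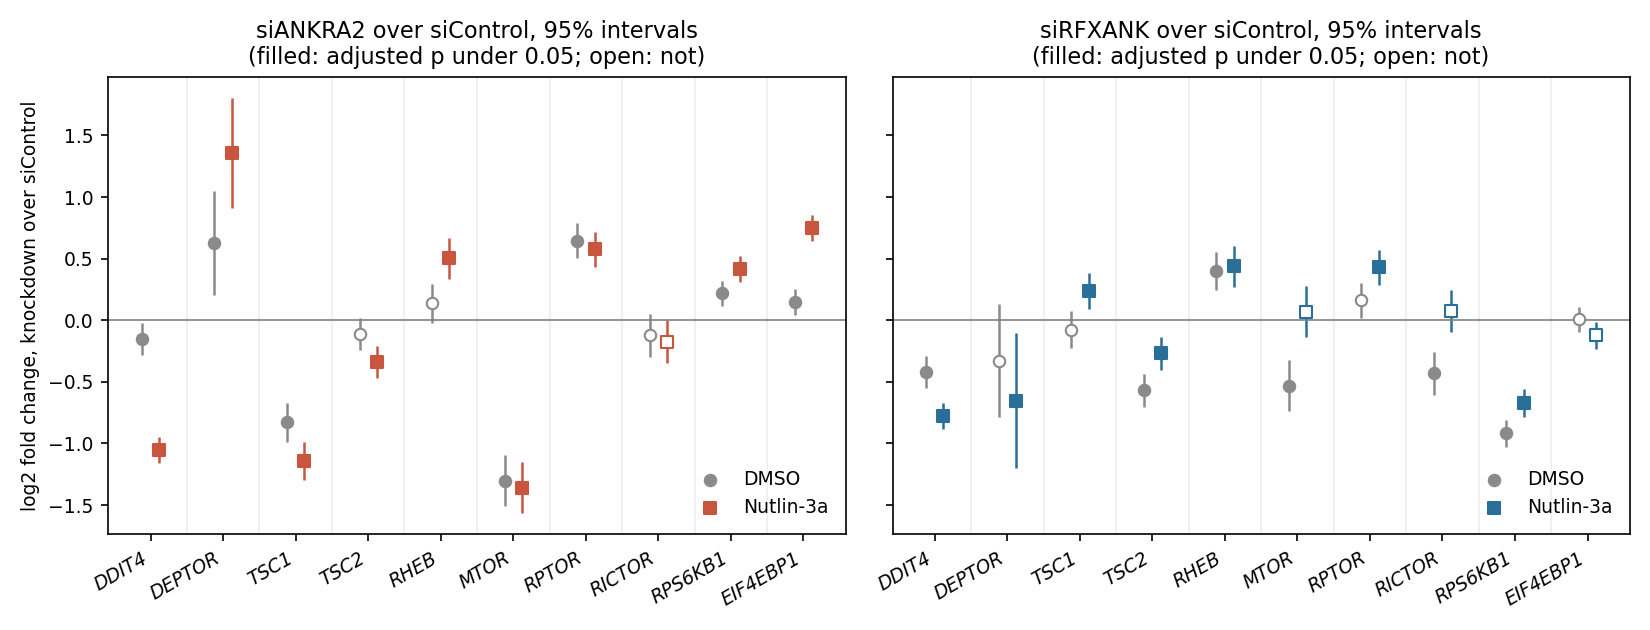
Log2 fold change of each member in siANKRA2 (left) and siRFXANK cells (right) over siControl cells, in DMSO (circles) and Nutlin-3a (squares), with 95% intervals, filled where the authors' adjusted p was under 0.05. *MTOR* and *TSC1* lie lowest after siANKRA2 and *DEPTOR* in Nutlin-3a highest, while *RPS6KB1* in DMSO lies lowest after siRFXANK.

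Per kilobase of the longest transcript, *EIF4EBP1* was the most abundant member in 5 groups and *DDIT4* in siControl cells with Nutlin-3a. In siControl cells with DMSO the recovered level per kilobase was 2600 normalized counts for *EIF4EBP1* and 523 for *MTOR*, followed by *RPS6KB1* at 487, *DDIT4* at 451, *TSC2* at 377 and *RPTOR* at 352. *RHEB* was at 233, *RICTOR* at 195, *TSC1* at 126 and *DEPTOR* at 18.9. Between neighbours in this order, the step from *MTOR* to *RPS6KB1* (1.07-fold), from *RPS6KB1* to *DDIT4* (1.08-fold) and from *TSC2* to *RPTOR* (1.07-fold) had 95% intervals that held 0, and the other 6 steps did not. These intervals leave out the errors of the recovery and of the lengths, so they do not settle the order. Scaling the recovered means to the authors' overall mean only exchanged *DDIT4* and *RPS6KB1* in this order. Using the length of all exons changed it from *MTOR* down to *RICTOR*. When scaled, *DDIT4* lay 1.29-fold above *RPS6KB1*. The top place of *EIF4EBP1* and the last places of *TSC1* and *DEPTOR* held in siControl cells with DMSO under both alternatives. With Nutlin-3a, *DDIT4* reached 2288 per kilobase and passed *EIF4EBP1* at 1761. In siANKRA2 cells with Nutlin-3a, *EIF4EBP1* at 2953 stayed 2.68-fold above *DDIT4* at 1103. Across the 6 groups, *DDIT4* spanned 6.79-fold, *DEPTOR* 4.03-fold, *MTOR* 2.89-fold, *TSC1* 2.60-fold and *RPS6KB1* 2.46-fold, while the remaining 5 spanned 1.58-fold to 1.83-fold.

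**Figure D4:**
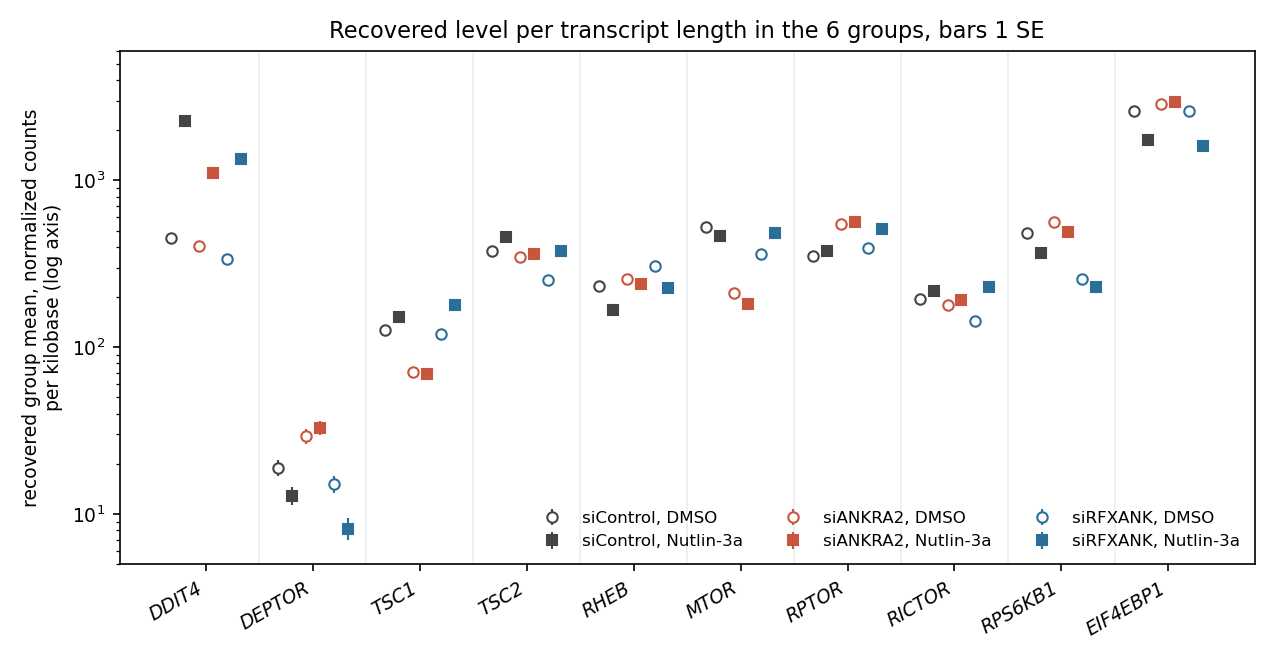
Recovered group mean in normalized counts per kilobase of the longest transcript, on a log axis, for each member in siControl (grey), siANKRA2 (red) and siRFXANK cells (blue) with DMSO (open circles) or Nutlin-3a (filled squares), with bars of 1 standard error. The bars leave out the error of recovering the means. *DEPTOR* lies between 8.12 and 32.7 and *EIF4EBP1* between 1617 and 2953, and the filled *DDIT4* squares all lie above the open circles.

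The genes whose fold changes over the 6 tables lay nearest to those of *DDIT4*, among 13102 other genes with a mean of at least 100, included *IGDCC4*, *EPS8L2*, *MXD4* and *ORAI3*. Their root mean square difference from *DDIT4* ran from 0.15 to 0.29 on the log2 scale. *IGDCC4* was at 2.09 with Nutlin-3a in siControl cells and at 1.21 in siANKRA2 cells, and *MXD4*, a member of the MAX network of transcription repressors, at 2.59 and 1.08. Nearest to *DEPTOR*, among 13103 genes, were *ATL1*, *SV2A*, *WNT10B*, *BLMH* and *EMX2*, at 0.14 to 0.21. *ATL1* was at 0.58 in DMSO and 1.19 in Nutlin-3a after siANKRA2. The 6 tables share samples, so these distances only describe likeness.

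Outside the 10 members, 54 further genes of the pathway were tested in the siControl response, and 42 of them passed (77.8%), 25 higher and 17 lower, against 43.2% of all genes and 67.5% of those averaging at least 100. Of the 10 genes for Rag GTPases and Ragulator, which bring mTORC1 to the lysosome, 7 rose and none fell, with *RRAGB* at 0.65 ± 0.11, *RRAGC* at 0.45 ± 0.08 and *LAMTOR1* at 0.35 ± 0.06. Of 10 nutrient sensors and other upstream regulators tested, 6 rose and 1 fell. The sestrin genes, whose products restrain mTORC1 through the GATOR complexes, led this list, with *SESN1* at 2.01 ± 0.07, *SESN2* at 1.81 ± 0.04 and *SESN3* at 1.38 ± 0.14, and *RHEBL1*, a relative of *RHEB*, fell by 1.54 ± 0.16. Of 9 genes for other subunits and assembly factors of the complexes, 3 rose and 5 fell. *PRR5*, a subunit of mTORC2, was at 0.45 ± 0.08, and *TTI1* and *TELO2*, which help to assemble mTOR complexes, were at -0.83 ± 0.06 and -0.50 ± 0.07. Of the 7 GATOR1 and KICSTOR genes tested, 2 rose, among them *C12orf66* at 0.65 ± 0.09, and 1 fell. Of the 5 GATOR2 genes, 1 rose (*WDR59* at 0.38 ± 0.05) and 4 fell, by at most 0.39 ± 0.04 (*SEH1L*). Of the 13 substrates and translation factors tested, 6 rose, led by *PDCD4*, an inhibitor of translation, at 1.29 ± 0.06, and 6 fell, led by *EIF4E* at -0.36 ± 0.08. The median of all 54 was 0.10, and that of all genes tested 0.02.

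After siANKRA2, 32 of the 54 genes passed in the Nutlin-3a comparison (59.3%), 23 higher and 9 lower, against 32.4% of all genes and 48.7% of those averaging at least 100. The difference from the siControl response passed for 20 (37.0%), with 9 higher and 11 lower, which is near the 37.1% of genes averaging at least 100. The sestrins were among the 11 lower ones, with differences of -0.71 ± 0.10 for *SESN1*, -0.72 ± 0.06 for *SESN2* and -0.89 ± 0.20 for *SESN3*, beside -0.64 ± 0.08 for *PDCD4*. *RHEBL1* had the largest difference upwards, 1.41 ± 0.20, followed by *TTI1* at 0.49 ± 0.08. In siRFXANK cells, 30 passed (55.6%), 14 higher and 16 lower, against 70.3% of genes averaging at least 100. The difference from siControl cells passed for 24 (44.4%), 10 higher and 14 lower, against 37.7%. These included 5 of the 10 Rag and Ragulator genes, all lower (*LAMTOR2* at -0.48 ± 0.10, *LAMTOR4* at -0.38 ± 0.11 and *LAMTOR1* at -0.35 ± 0.08 led them), whose list has a median transcript length of 1946 bases. With the medians of genes of like length subtracted, 2 of these 10 genes passed, both lower. The 44.4% is without this subtraction, which changed the other lists as well. Higher and lower counts went from 4 and 4 to 1 and 4 for substrates and translation factors. For sensors and upstream regulators they went from 2 and 2 to 1 and 4, and for other subunits from 1 and 3 to 1 and 1. GATOR2 went from 2 and 0 to 1 and 0, and GATOR1 and KICSTOR from 1 and 0 to 0 and 1.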

How the data were processed

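RNA of 18 U2OS samples in 6 groups of 3 was sequenced after poly(A) selection (RNeasy Plus extraction, NEBNext Ultra II libraries). The submitters' processing notes name bcl2fastq 2.20.0.422, FastQC 0.11.9, Trimmomatic 0.39, cutadapt 2.10, SAMtools 1.10, Picard, featureCounts 1.6.5, DESeq2 1.20.0 and hg38. The aligner, the annotation and the use of strand are not given in the sources used here. The 6 tables deposited by the authors compare pairs of groups and hold no counts per library, so precision can only be taken from their standard errors.

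As deposited, each table gives the mean of counts scaled by size factors over all samples of the fit, a signal that is the same in all tables. It also gives the log2 fold changes and their standard errors that the authors fitted, unshrunken as far as the Wald statistic shows. That statistic, the fold change over its standard error, is the score the authors deposited. The p-values were computed by the authors with DESeq2's two-sided Wald test and adjusted by the Benjamini-Hochberg method. These columns come from the authors' own fit, and no other values of the groups were at hand.

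Fold changes closed across the tables to within 1.39055e-14 for 22738 genes, as in 1 joint fit. Only the 4 tables of siControl and siANKRA2 form such a loop, so the siRFXANK tables were not checked by it, but their mean over all samples is the same as in the other tables. On this reading the Nutlin-3a response of siRFXANK cells and the differences between responses were derived with their standard errors, tested with a two-sided normal test and adjusted over all genes tested at 0.05. The siANKRA2 and siRFXANK tables were read as siRNA over siControl, the direction in which each target falls. Group means were recovered from fold changes, standard errors and the fitted dispersion. The authors' mean was a median of 0.988 times the recovered mean over 13100 genes, with 0.615 and 1.49 at the 1st and 99th percentile. Recovered means are therefore approximate. *ANKRA2* was left out of this check by name. Its mean over all samples, 31568 normalized counts, lay far above the group means recovered for it, and the reason is unknown. Lengths come from GENCODE 29, which held 26659 of 26702 gene IDs.

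The 10 members and the pathway lists were chosen with earlier results of these data known. Other genes named are the leading called genes of each list, the targets of the siRNAs, p53 targets, and the 5 genes nearest to *DDIT4* and *DEPTOR* over the 6 tables, of which 1 is not reported here. Alternatives were a threshold of 0.01, a minimum absolute log2 fold change of 1, minimum means, re-adjustment over genes in all tables and centring on the median. Subtraction of medians by transcript length or GC content, the siANKRA2 against siRFXANK response, exon length and the steps between neighbouring levels were added after the data were seen. Scripts were tested on simulated data and ran in Python 3.11.15 with numpy 2.4.6, pandas 2.3.3, scipy 1.17.1 and matplotlib 3.10.9.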

Additional observations from a re-analysis of the deposited data

Results flagged for a closer look

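Responses to Nutlin-3a that differed between siRNAs, by a direct test of the difference with a two-sided normal p adjusted over all genes, were singled out for a closer look. All values are differences of log2 fold changes.

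Between siANKRA2 and siControl cells the response differed by -0.90 for *DDIT4*, -0.31 for *TSC1*, 0.37 for *RHEB*, 0.20 for *RPS6KB1* and 0.60 for *EIF4EBP1*. Of these 5, the *TSC1* difference did not pass after subtraction of the median of genes of like transcript length.

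Between siRFXANK and siControl cells it differed by -0.36 for *DDIT4*, 0.31 for *TSC1*, 0.30 for *TSC2*, 0.60 for *MTOR*, 0.27 for *RPTOR*, 0.51 for *RICTOR* and 0.24 for *RPS6KB1*. None of these 7 passed after the subtraction, and *DDIT4*, *MTOR* and *RICTOR* then had an unadjusted normal p under 0.05. The 6 differences above 0 belong to the 6 members with the longest transcripts.

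Between siANKRA2 and siRFXANK cells it differed by -0.55 for *DDIT4*, 1.05 for *DEPTOR*, -0.63 for *TSC1*, -0.53 for *TSC2*, 0.33 for *RHEB*, -0.66 for *MTOR*, -0.34 for *RPTOR*, -0.56 for *RICTOR* and 0.73 for *EIF4EBP1*. After the subtraction, *RHEB*, *MTOR*, *RPTOR* and *RICTOR* no longer passed. The cause of the length trend was not tested.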

How the results depend on the processing

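The number of the 10 members past the threshold moved by over 1.5 times under 3 alternatives. Where a log2 fold change of 1 or more in either direction was also required, 1 member passed in each Nutlin-3a comparison (siControl, siANKRA2 and siRFXANK cells), 1 with siANKRA2 in DMSO, 4 with siANKRA2 in Nutlin-3a and 0 in both siRFXANK over siControl comparisons. Of the differences between responses, 0 then passed for siANKRA2 minus siControl, 0 for siRFXANK minus siControl and 1 for siANKRA2 minus siRFXANK. At an adjusted p of 0.01, 2 passed for siANKRA2 minus siControl and 3 for siRFXANK minus siControl. After subtraction of the median of genes of like transcript length, 0 passed for siRFXANK minus siControl and 5 for siANKRA2 minus siRFXANK, by a normal test. Re-adjustment over other gene sets, centring on the median and subtraction by GC content left each of the 10 counts within 1.5 times of its value. Centring took *DDIT4* with siANKRA2 in DMSO and *RPTOR* in siRFXANK minus siControl out of the calls, at normal-test adjusted p = 0.055 and 0.059. No value that had passed changed direction under length, GC or centring, but 10 that had not passed did. With like-length medians subtracted, *TSC1* turned to 0.18 (adjusted p = 0.046) and *EIF4EBP1* to -0.11 in siRFXANK over siControl in DMSO, and *TSC2* to 0.019 with siANKRA2 in DMSO. The response differences turned to 0.0075 (*MTOR*) and 0.016 (*RICTOR*) for siANKRA2 minus siControl, and to 0.099 (*RPS6KB1*) for siANKRA2 minus siRFXANK. With like-GC medians subtracted, *EIF4EBP1* turned to -0.23 with siRFXANK in DMSO (adjusted p = 3.7e-05), *RICTOR* to -0.018 with siRFXANK in Nutlin-3a and *RPTOR* to -0.021 in siANKRA2 cells. Differences turned to 0.0042 (*RPTOR*, siANKRA2 minus siControl), 0.044 (*EIF4EBP1*, siRFXANK minus siControl) and 0.038 (*RPS6KB1*, siANKRA2 minus siRFXANK). The causes were not tested. The tables hold no value per library, so leaving out single samples was not run. No paired analysis was possible because the tables carry no value for any replicate number. Without depth or counts, low values such as those of *DEPTOR* are limited by their standard errors alone.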

Other observations

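In DMSO, siANKRA2 over siControl passed for 43 of the 55 further pathway genes tested (78.2%), 23 higher and 20 lower, by the authors' Wald test, near the 77.0% of all genes averaging at least 100 normalized counts. From the list of sensors and upstream regulators, in which 6 of 10 rose and 3 fell, *FLCN*, the gene of folliculin, was at 0.91 ± 0.05 and *FNIP1*, the gene of a partner of folliculin, at 0.58 ± 0.07. The sestrin genes moved apart, with *SESN2* at 0.98 ± 0.05, *SESN1* at -0.24 ± 0.08 and *SESN3* at -1.47 ± 0.14. Among the translation factors, *EIF4EBP2*, the close relative of *EIF4EBP1*, fell by 1.29 ± 0.05, while *EIF4E* rose to 0.46 ± 0.08 and *LARP1*, which binds messages of ribosomal proteins, to 0.68 ± 0.06. In Nutlin-3a the values were -1.15 ± 0.05 for *EIF4EBP2*, 0.80 ± 0.08 for *EIF4E* and 0.86 ± 0.06 for *LARP1*. The Ragulator genes were split, with *LAMTOR3* at 0.82 ± 0.07 and *LAMTOR2* at -0.82 ± 0.08 in DMSO.

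After siRFXANK in DMSO, 35 of 54 genes passed (64.8%), 21 higher and 14 lower, against 69.5% of all genes averaging at least 100. The values of this paragraph are without subtraction of like-length medians. In DMSO the subtraction took substrates and translation factors from 3 higher and 4 lower to 6 higher and 3 lower. Other subunits and assembly factors went from 5 and 4 to 4 and 4, and sensors and upstream regulators stayed at 4 and 1. *MLST8*, the gene of a subunit that both mTOR complexes share, fell by 0.92 ± 0.05 in DMSO and by 1.11 ± 0.05 in Nutlin-3a. *TBC1D7*, the gene of the third subunit of the TSC complex, was at 0.98 ± 0.07 and 0.68 ± 0.07. *EEF2K*, the gene of the kinase of elongation factor eEF2 and a target of S6K1, was at -0.84 ± 0.07 and -0.51 ± 0.07, and *ULK1*, an autophagy kinase that mTORC1 phosphorylates, at -0.51 ± 0.07 and -0.87 ± 0.07. *FNIP2* fell by 1.06 ± 0.09 in DMSO, whereas after siANKRA2 it was higher. The 2 knockdowns share their siControl samples, and the difference between them was not tested for these genes.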
